A study of Mus musculus with 2 samples.

Results

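The 31 genes described here act when a cell divides its chromosomes, and they were taken by symbol from the gene column of the deposited count tables, which list 27998 genes. All 31 symbols were found. They were followed across 5 classes of liver nuclei defined by marker genes (hepatocyte-like, endothelial-like, macrophage-like, stellate-like and T/NK-like) and across the hepatocyte-like nuclei ordered from the central to the portal side of the lobule. The study profiled nuclear RNA of mouse liver by droplet-based 3′ sequencing 48 h after partial hepatectomy (PHx), the removal of part of the liver that sets off regrowth of the rest. One library was Sox9HKO (HKO) and 1 was Sox9f/f (WT, carrying the floxed allele), both from C57BL/6 mice 12 weeks old, and the labels do not say how many mice went into each. HKO is not spelt out in the labels and the driver of the deletion is not named there, the genotype field holds the age, and the group of each library therefore rests on its title. With 1 library per group there was no replicate, so nothing was tested and p-values are left out. Intervals are exact 95% intervals for counting error only, and they say nothing of the spread between animals.

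In mitosis the Aurora and Polo kinases drive entry and spindle assembly, kinesin motors build and move the spindle, kinetochore proteins tie chromosomes to it, and condensins and topoisomerase II compact and disentangle the chromosomes. The checkpoint kinases hold the cell until every kinetochore is attached, after which Cdc20 switches on the ubiquitin ligase that starts anaphase. Hepatocytes of the adult liver are mostly quiescent and re-enter the cell cycle after partial hepatectomy, with DNA synthesis followed by a wave of mitosis in mouse. Most of these genes are known to be transcribed late in the cell cycle, from promoters in which a 6-base element (the cell cycle genes homology region, CHR) and CCAAT boxes recur.

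Those promoter letters were searched first, because they recur in promoters of genes of this kind. RefSeq promoter windows (build GRCm38.p6, 250 bases before to 50 after the start of the gene) matched 26 of the 31 members, with Casc5 found under its present symbol Knl1. Aurkb, Kif20a, Tpx2, Smc4 and Cdca2 had no window. The CHR letters, searched on both strands as TTTGAA and in the variant form TTCGAA, lay in 22 of the 26 windows, against 19.2% of all 32851 windows and 13.6% of the 8362 windows of genes that averaged at least 10 CPM (UMIs per 1000000) in hepatocyte-like nuclei. CCAAT on either strand lay in 21 of the 26, against 37.4% of all windows, and both elements in 20 of the 26, against 7.52%. Melk, Nusap1 and Cenpp held neither in this window. A match of letters is a description and not a binding site.

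The 4 sequences below are those of the member with the highest level and the 3 with the lowest HKO over WT ratio in hepatocyte-like nuclei, among members whose window holds the CHR letters. Each runs 5′ to 3′ on the gene's own strand from 250 bases before to 30 bases after the start, and capitals mark the CHR letters in both forms, the CCAAT boxes and the reverse complements of each. The elements do not overlap in these windows.
Top2a (chr11:99024160-99024439, - strand): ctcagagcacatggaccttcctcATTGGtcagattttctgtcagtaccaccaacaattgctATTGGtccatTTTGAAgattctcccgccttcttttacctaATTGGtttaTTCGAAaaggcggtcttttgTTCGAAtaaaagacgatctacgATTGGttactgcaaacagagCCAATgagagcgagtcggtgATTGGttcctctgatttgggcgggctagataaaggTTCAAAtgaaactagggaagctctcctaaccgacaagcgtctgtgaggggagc
Cdc20 (chr4:118437314-118437593, - strand): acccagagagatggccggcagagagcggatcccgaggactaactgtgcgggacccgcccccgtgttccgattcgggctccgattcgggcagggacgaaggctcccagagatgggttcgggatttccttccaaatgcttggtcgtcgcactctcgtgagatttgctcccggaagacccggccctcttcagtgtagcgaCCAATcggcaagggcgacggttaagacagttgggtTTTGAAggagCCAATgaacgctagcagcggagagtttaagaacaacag
Ttk (chr9:83834439-83834718, + strand): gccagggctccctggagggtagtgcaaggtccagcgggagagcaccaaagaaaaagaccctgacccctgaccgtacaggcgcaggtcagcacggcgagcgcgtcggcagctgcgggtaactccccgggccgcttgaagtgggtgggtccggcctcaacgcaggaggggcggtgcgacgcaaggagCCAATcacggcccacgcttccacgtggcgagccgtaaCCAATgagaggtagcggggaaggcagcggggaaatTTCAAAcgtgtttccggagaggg
Ncapg (chr5:45669675-45669954, + strand): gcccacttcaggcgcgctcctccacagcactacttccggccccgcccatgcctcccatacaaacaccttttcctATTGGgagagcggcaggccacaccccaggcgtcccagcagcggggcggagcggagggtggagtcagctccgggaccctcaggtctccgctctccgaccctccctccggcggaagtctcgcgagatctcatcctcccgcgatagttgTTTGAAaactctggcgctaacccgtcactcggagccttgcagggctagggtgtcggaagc

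The Top2a window holds TTTGAA at 2 places, counting both strands, the variant form at 2 and CCAAT boxes at 6. Cdc20 and Ttk each have 1 TTTGAA and 2 CCAAT boxes, and Ncapg has 1 of each. Positions count from the start of the gene, with -1 as the base before it. TTTGAA begins at -18 in Cdc20 and at -30 in Ncapg, and its reverse complement begins at 8 in Ttk and at -23 in Top2a, so in all 4 windows a copy lies close to the start.

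The tables held 61123904 unique molecular identifiers (UMIs, each standing for 1 captured RNA molecule) in 14912 HKO barcodes and 64609301 in 14701 WT barcodes. After filtering, 14902 HKO and 14515 WT nuclei were kept, with medians of 3285 and 3423 UMIs, and 3855 HKO nuclei against 286 WT nuclei had under 2000 UMIs. The libraries shared 70 barcode sequences. Sox9, the targeted gene, had in hepatocyte-like nuclei 5.79 CPM in HKO against 11.1 CPM in WT, a fold of 0.522 (0.444 to 0.612), and since the deleted bases are not stated in the labels, a 3′ count need not register the deletion. The libraries also stood apart as a whole: nuclei of the same class lay mostly in different clusters in HKO and WT, and the 15 hepatocyte markers in hepatocyte-like nuclei summed to 14765 CPM in HKO against 31648 CPM in WT. The hepatocyte-like class was made of clusters 0, 3, 11 and 16 in HKO and of clusters 1, 2, 5, 7 and 13 in WT. Macrophage-like nuclei were clusters 6 and 18 in HKO and 10 in WT, and T/NK-like nuclei 14 in HKO and 21 in WT. Endothelial-like nuclei lay in cluster 4 for 2254 of 2306 in HKO and in cluster 9 for all 1139 in WT, and stellate-like nuclei in cluster 8 for 1163 of 1184 in HKO and in cluster 12 for 604 of 649 in WT. Every comparison of HKO with WT within a class thus sets mostly different clusters side by side. The median mitochondrial share of UMIs was 0.0738% in HKO against 0.311% in WT hepatocyte-like nuclei, and it was lower in HKO in each of the other 4 classes, at 0.154 to 0.213% in HKO against 0.346 to 0.4999% in WT. Malat1, a nuclear RNA, had 51726 CPM in HKO against 38459 CPM in WT in hepatocyte-like nuclei without member UMIs. The part of these differences in the results was not tested. Without the cluster of highest mitochondrial share in each library the summed fold of the members in hepatocyte-like nuclei was 0.507. The clusters left out were unlike. In HKO it was cluster 11, with 742 nuclei, a median share of 0.0876% and the pericentral markers Glul, Slc1a2 and Lgr5 among its leading genes. In WT it was cluster 5, with 1939 nuclei and a median share of 0.818%. Each of the other classes carried its own markers at 7.69 to 46.4 times their level in hepatocyte-like nuclei. The same markers had named the classes, so these ratios describe the classes and do not check the names. Hepatocyte marker RNA stood in the other classes at 79.1 to 92.9% of its hepatocyte-like level. The part of that RNA in the members' counts outside hepatocytes was not tested.

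In the 8581 HKO and 11378 WT hepatocyte-like nuclei, the 31 genes had a summed level of 362 CPM in HKO, with an interval of 356 to 368, against 709.9 CPM in WT, with one of 702 to 717. The fold of HKO over WT was 0.510 (0.4998 to 0.520). All 31 were lower in HKO, each with an interval below 1, and their log2 ratios had a median of -0.96 and ran from -1.72 to -0.52. The share of all genes with an interval below 1 was not counted, so that count has no base. Among the 17 members that averaged 10 CPM or more, 10 had a log2 ratio of -1 or less and 0 of 1 or more. Across all 8402 genes at that level, 4.9% were that much lower and 3.19% that much higher, and their median log2 ratio was 0.19. The 14 members under 10 CPM were Bub1, Bub1b, Aurka, Aurkb, Plk1, Melk, Cdc20, Kif14, Kif20a, Kif23, Kif18b, Ckap2l, Arhgap11a and Ncapg. Scaling by trimmed means (TMM) in place of the class total shifted all log2 ratios by -0.13 and changed the split of all genes past that size to 507 lower and 206 higher, against 412 and 268.

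**Figure D1:**
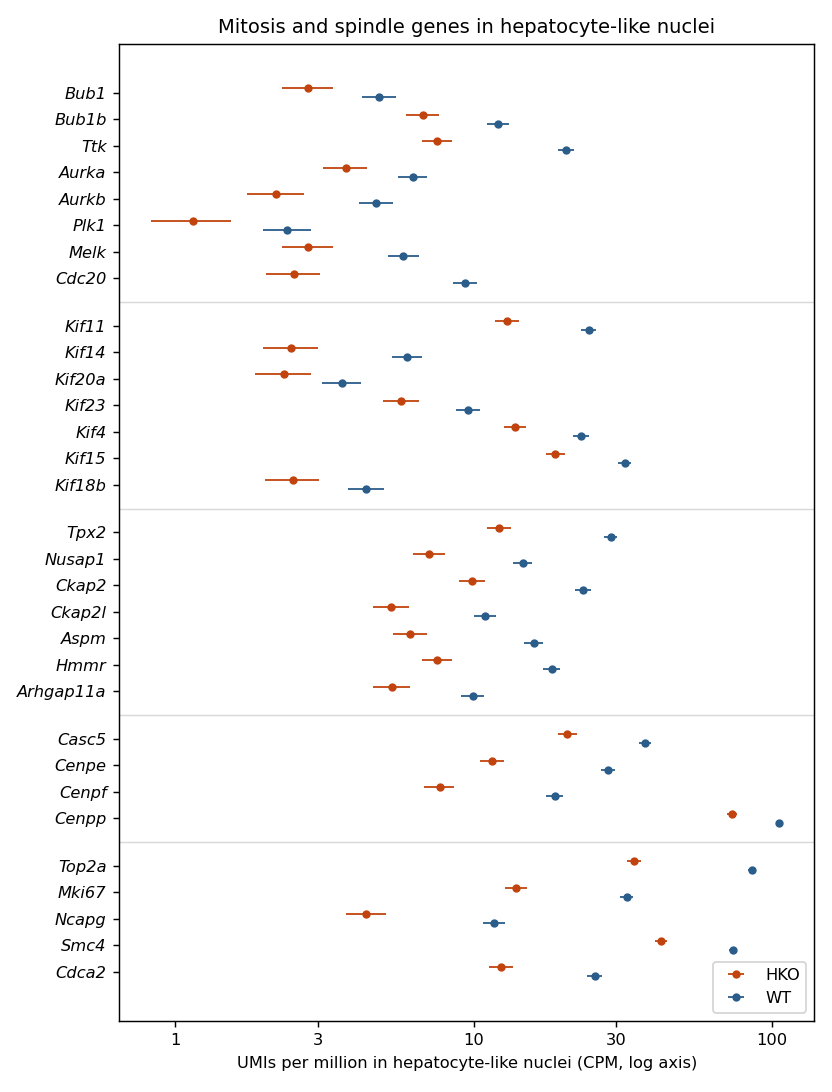
Level of each of the 31 genes in hepatocyte-like nuclei of the HKO (orange) and WT (blue) library, in CPM on a log axis, with exact 95% Poisson intervals (counting error only) and lines between groups of genes by role. Every orange point lies left of its blue point, with the widest gap at Cdc20 and the narrowest at Cenpp.

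Among the checkpoint and mitotic kinase genes the summed level was 29.4 CPM in HKO against 65.8 CPM in WT. Cdc20, the activator of the anaphase-promoting complex, had 2.497 CPM in HKO against 9.35 CPM in WT, a fold of 0.267 (0.212 to 0.334), which was the lowest of the 31 in hepatocyte-like nuclei. Ttk, the checkpoint kinase also called Mps1, had 7.54 CPM in HKO against 20.4 CPM in WT, with a fold of 0.370 (0.323 to 0.423). Its checkpoint partners were less far apart. Bub1, the kinase that builds the checkpoint platform at the kinetochore, had 2.79 CPM in HKO against 4.83 CPM in WT. Bub1b (BubR1), part of the complex that restrains Cdc20, had 6.75 CPM in HKO against 12.1 CPM in WT. The folds of both, 0.578 and 0.559, lay above the interval of Ttk.

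The Aurora and Polo kinases were scarce in both libraries. Aurka, which matures centrosomes and the spindle poles, had 3.72 CPM in HKO against 6.25 CPM in WT. Aurkb, the kinase of the chromosomal passenger complex, had 2.18 CPM in HKO against 4.71 CPM in WT, and Plk1, the Polo kinase, had 1.14 CPM from 43 UMIs in HKO and 2.37 CPM from 114 UMIs in WT. Melk, a kinase of proliferating cells, had 2.79 CPM in HKO against 5.81 CPM in WT. Their folds ran from 0.463 for Aurkb to 0.596 for Aurka, with intervals that overlap one another.

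The 7 kinesins summed to 58.4 CPM in HKO against 103 CPM in WT and had the highest median log2 ratio of the groups by role, at -0.71. Kif11 (Eg5), which pushes the spindle poles apart, had 12.9 CPM in HKO against 24.3 CPM in WT. Kif15, which works beside Kif11, had 18.8 CPM in HKO against 32.1 CPM in WT, and the chromosome-bound motor Kif4 had 13.8 CPM in HKO against 22.9 CPM in WT. None of these 3 reached a log2 ratio of -1. Among the motors of cytokinesis, Kif14 had 2.44 CPM in HKO against 5.98 CPM in WT, a log2 ratio of -1.14. Kif20a had 2.31 CPM in HKO against 3.62 CPM in WT, and Kif23 had 5.71 CPM in HKO against 9.58 CPM in WT. Kif18b, which shortens microtubules, had 2.47 CPM in HKO against 4.35 CPM in WT. Kif14 stood apart from the other kinesins in its value, yet its interval of 0.320 to 0.519 overlaps that of Kif11, at 0.478 to 0.592.

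The 7 spindle proteins summed to 53.4 CPM in HKO against 122 CPM in WT, with a median log2 ratio of -1.19. Aspm, a protein of the spindle poles, had 6.11 CPM in HKO against 15.9 CPM in WT. Hmmr, which binds spindle microtubules, had 7.54 CPM in HKO against 18.2 CPM in WT. Tpx2, which activates Aurora A on the spindle, had 12.1 CPM in HKO against 28.8 CPM in WT, and Ckap2 had 9.88 CPM in HKO against 23.2 CPM in WT. These 4 all had log2 ratios of -1.19 or less. Nusap1, which bundles spindle microtubules, had 7.09 CPM in HKO against 14.6 CPM in WT. Ckap2l had 5.29 CPM in HKO against 10.9 CPM in WT, and Arhgap11a had 5.31 CPM in HKO against 9.93 CPM in WT.

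At the kinetochore, the motor Cenpe had 11.5 CPM in HKO against 28.2 CPM in WT, and Cenpf had 7.68 CPM in HKO against 18.7 CPM in WT, with folds of 0.409 and 0.412. Casc5 (Knl1), the scaffold on which the checkpoint proteins gather, had 20.6 CPM in HKO against 37.5 CPM in WT, a fold of 0.550. Cenpp, a subunit of the constitutive centromere network, had the highest raw level of all members, 73.5 CPM in HKO against 106 CPM in WT, and the highest fold, 0.695 (0.663 to 0.728). Cenpp spans 189 kb of chromosome 13 (49464023 to 49652785, GRCm38) and overlaps Ippk, Tes3-ps, Ecm2, Aspn, Omd and Ogn on the opposite strand, and the labels do not say whether counting used strand. Divided by gene length it was not prominent, at 0.389 CPM per kb in HKO and 0.560 CPM per kb in WT. Whether these 3′ UMI counts scale with gene length was not tested, so ranks per kb here and below are a description only. Cdc20 likewise overlaps Elovl1, and Ncapg overlaps Lcorl, on the opposite strand.

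Per kb of gene, Smc4 and Top2a led. Top2a, which untangles sister chromatids, had 34.4 CPM in HKO against 85.9 CPM in WT, which is 1.10 CPM per kb in HKO and 2.75 CPM per kb in WT. Smc4, a core subunit of condensin, had 42.5 CPM in HKO against 74.1 CPM in WT, or 1.42 CPM per kb in HKO and 2.48 CPM per kb in WT, with reads of Mir15b and Mir16-2, which lie within it on the same strand, not separable. Their order thus differed between libraries: Smc4 was above Top2a in HKO and below it in WT. The fold was 0.400 (0.376 to 0.426) for Top2a and 0.573 (0.540 to 0.608) for Smc4. Mki67, whose protein Ki-67 coats mitotic chromosomes, had 13.9 CPM in HKO against 32.6 CPM in WT. The condensin subunit Ncapg had 4.36 CPM in HKO against 11.7 CPM in WT, and Cdca2 (Repo-Man), which brings a phosphatase to chromatin, had 12.3 CPM in HKO against 25.4 CPM in WT.

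Other genes of mitosis were counted from a list of 49. In hepatocyte-like nuclei they summed to 573 CPM in HKO against 963 CPM in WT, a fold of 0.595 (0.585 to 0.604), and 45 of the 49 had an interval below 1 and 0 above 1. For these intervals too the share of all genes was not counted. Of the 19 that averaged 10 CPM or more, 2 had a log2 ratio of -1 or less, against 4.9% of all genes, and 0 one of 1 or more, against 3.19%. Among those of all 49 with the largest ratios in size were Ube2c, the ubiquitin-conjugating enzyme that works with the anaphase-promoting complex, Nek2 and Cdca3. Their log2 ratios were -1.31, -1.30 and -1.28, and each of them averaged under 10 CPM. Ube2c had 1.43 CPM in HKO against 4.31 CPM in WT, Nek2 2.05 and 5.79 CPM, and Cdca3 3.16 and 8.37 CPM. Ccna2, Cit, Mybl2 and 1 further gene had intervals that include 1; Ccna2, the cyclin of S and G2 phase, had 2.26 CPM in HKO against 1.98 CPM in WT. The 28 genes of DNA replication summed to 469 CPM in HKO against 806 CPM in WT, a fold of 0.582 (0.571 to 0.592).

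A lower sum can come from fewer nuclei with these transcripts or from fewer transcripts in each, so UMIs were counted per nucleus after thinning every nucleus to 2000 UMIs, which left out 965 HKO and 224 WT hepatocyte-like nuclei. At least 3 UMIs of the 31 genes were found in 6.93% of HKO nuclei (6.37 to 7.53, of 7616) and in 14.2% of WT nuclei (13.6 to 14.9, of 11154). Without thinning the shares were 11.9% in HKO and 26.6% in WT. At least 10 UMIs were found in 94 HKO nuclei, 1.23% (0.999 to 1.51), and in 260 WT nuclei, 2.33% (2.06 to 2.63). These nuclei held 20.7% of the members' UMIs in HKO and 22.2% in WT. Nuclei with 0 such UMIs made up 67.2% of HKO and 44.9% of WT nuclei.

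The excess of WT was found at every count above 0 and not only among nuclei rich in these transcripts. Nuclei below 10 UMIs averaged 0.591 UMIs in HKO and 1.10 UMIs in WT, while nuclei at 10 or more averaged 12.4 UMIs in HKO and 13.1 UMIs in WT. The nuclei were split by the same UMIs that were averaged, so the cut bounds these means and no comparison is drawn between the 2 groups. No class among the 5 is known to lack dividing cells, so no share of nuclei that would mark free RNA alone could be set beside the shares above. The part of free RNA in nuclei with 1 or 2 UMIs was not tested. One hepatocyte-like cluster of each library was led by mitosis genes although the members and the other cell cycle lists were left out of clustering: cluster 16 in HKO, with 257 nuclei and 3810.5 CPM of members, and cluster 13 in WT, with 617 nuclei and 3831 CPM. They had 4 and 5 of 15 hepatocyte markers above the median of the clusters of other classes, fewer than any other hepatocyte-like cluster. Their name rests on these few markers and on no other class leading in them.

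**Figure D2:**
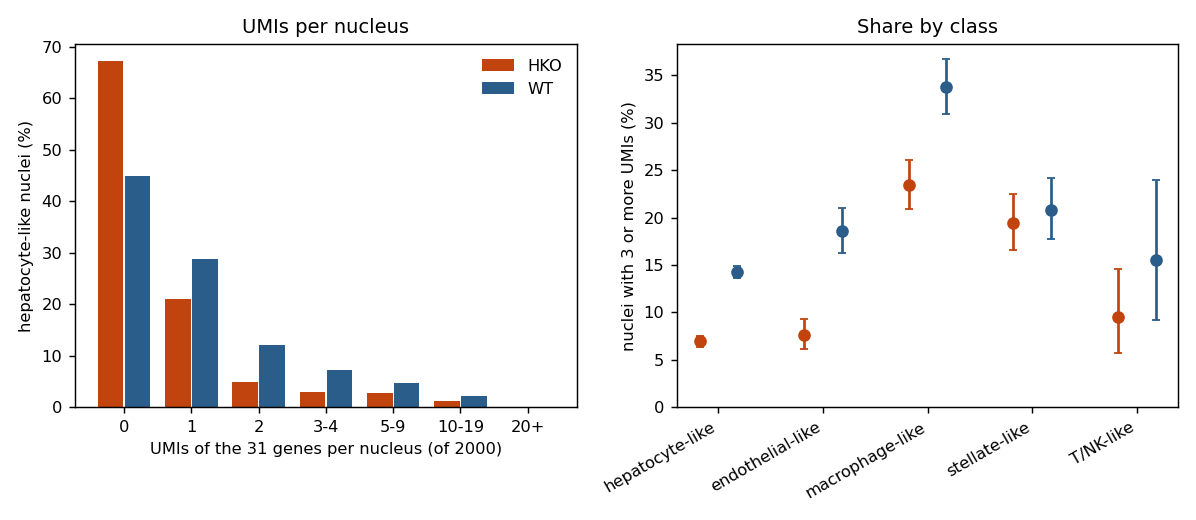
Left, percent of hepatocyte-like nuclei by the number of UMIs of the 31 genes among 2000 UMIs, HKO orange and WT blue; right, percent of nuclei with 3 or more such UMIs in each class, with exact 95% binomial intervals (counting error only). HKO has more nuclei at 0 and fewer in every bin from 1 upward; the intervals of the libraries are apart in hepatocyte-like, endothelial-like and macrophage-like nuclei and overlap in stellate-like and T/NK-like nuclei.

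The members occurred together in the same nuclei. Each gene's level was compared between hepatocyte-like nuclei that held 3 or more UMIs of the other 30 genes and nuclei that held 0, at 2000 UMIs per nucleus. All 31 genes were higher in the nuclei with 3 or more, with intervals above 1 in both libraries, by a median of 20.7 times in HKO (4.34 to 38.9) and 8.25 times in WT (3.73 to 10.996). Genes outside the 31 were not counted in this way, so the count of intervals has no base. Top2a had 314 CPM in such nuclei and 12.2 CPM in nuclei with 0 in HKO, and 357 CPM against 33.1 CPM in WT. Smc4 was among the most evenly spread, at 141 CPM against 32.5 CPM in HKO and 199 CPM against 51.2 CPM in WT, and had the lowest fold in HKO. In WT the lowest was that of Plk1, at 3.73 times from 20 and 17 UMIs.

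Both libraries were also compared within nuclei chosen by their other members. In nuclei with 0 UMIs of the others the median HKO over WT fold of the 31 was 0.396, and 27 had an interval below 1. In nuclei with 10 or more UMIs of the others the median fold was 0.848, with 8 intervals below 1 and 2 above 1. How many of all genes had such intervals in these nuclei was not counted. Choosing nuclei by these genes sets how near the levels can come, so no comparison is drawn between the 2 medians. Cenpp and Arhgap11a were the 2 that were higher in HKO there: Cenpp had 698 CPM in HKO against 509.9 CPM in WT. Cdc20 was lower, with 32.3 CPM from 6 UMIs in HKO and 97.7 CPM from 50 UMIs in WT. Replication genes were higher with 3 to 9 member UMIs than with 0 in both libraries, and lower again with 10 or more. They summed to 350.4 CPM in HKO nuclei with 0 member UMIs, 1722 CPM with 3 to 9 and 1441 CPM with 10 or more. In WT the sums were 581, 1574 and 1177 CPM. Hepatocyte markers were lower in the richest nuclei, at 12175 CPM with 10 or more and 14816 CPM with 0 in HKO, and 26492 and 33843 CPM in WT.

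**Figure D3:**
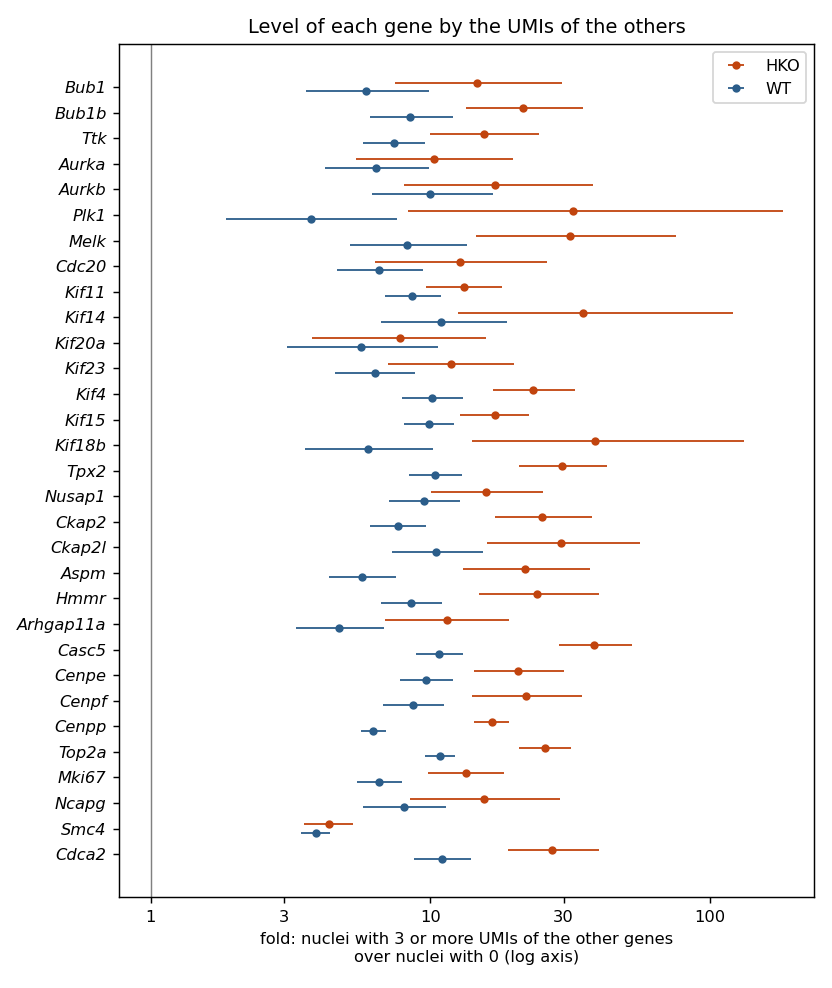
Fold of each gene in hepatocyte-like nuclei with 3 or more UMIs of the other 30 genes over nuclei with 0, on a log axis, HKO orange and WT blue, with exact 95% intervals (counting error only). All points lie right of 1; the HKO folds, with a median of 20.7, are mostly right of the WT folds, with a median of 8.25.

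The members differed most between libraries on the portal side of the lobule. Hepatocyte-like nuclei were ordered within each library by a score of 12 pericentral against 12 periportal marker genes, and cut into 3 zones of equal numbers of nuclei, called pericentral, midlobular and periportal here. In the pericentral zone the 31 genes summed to 391 CPM in HKO against 512 CPM in WT, a fold of 0.764 (0.738 to 0.792). In the midlobular zone they summed to 442 CPM in HKO against 848 CPM in WT, a fold of 0.521 (0.505 to 0.538), and in the periportal zone to 259 CPM in HKO against 776 CPM in WT, a fold of 0.333 (0.321 to 0.346). The intervals of the 3 folds do not overlap.

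Within each library the order was turned round. In HKO the pericentral zone stood above the periportal zone, by 1.51 times (1.45 to 1.58), and in WT below it, at 0.659 times (0.641 to 0.678). For 21 of the 31 genes the interval of pericentral over periportal was above 1 in HKO and below 1 in WT, and in WT it was below 1 for all 31. The share of all genes with such intervals was not counted, so these counts have no base to be read against. With the combined score both libraries had their highest sum in the midlobular zone, but other settings moved that peak. With pericentral markers alone HKO had 385 CPM in the pericentral and 357 CPM in the midlobular zone, and WT had 869 CPM in the periportal and 771 CPM in the midlobular zone. HKO was also highest in the pericentral zone with periportal markers alone, at 441 CPM against 411 CPM in the midlobular zone, and nearly level without nuclei of 10 or more member UMIs, at 330.5 and 329.7 CPM. With either marker list alone, with a wider middle zone, in nuclei of at least 2000 UMIs and without nuclei of 10 or more member UMIs, HKO kept a ratio above 1 and WT one below 1. About 15.5% of HKO and 15.2% of WT nuclei lay within 0.1 SD of a bound, and the zones are ranges of a score and not cell types. The pericentral markers summed to 2866 and 399.5 CPM in the pericentral and periportal zones of HKO, against 4926 and 1395 CPM in those of WT, so the zones of the 2 libraries were not equally far apart in that RNA, and its part in the result was not tested.

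**Figure D4:**
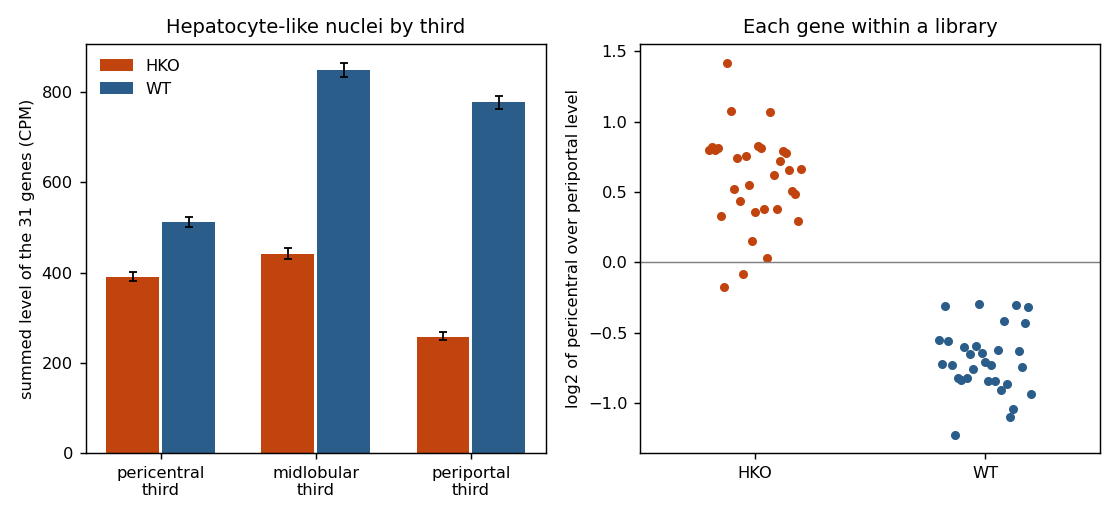
Left, summed level of the 31 genes in CPM by zone of the hepatocyte-like nuclei, HKO orange and WT blue, with exact 95% Poisson intervals (counting error only); right, log2 of pericentral over periportal level for each gene in each library. HKO is lowest in the periportal zone, at 259 CPM, and WT in the pericentral zone, at 512 CPM; all 31 WT points and 2 HKO points lie below 0.

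Single members showed how far this went. In the periportal zone 16 of the 17 members that averaged 10 CPM or more had a log2 ratio of -1 or less, against 5.43% of all genes there, and 0 one of 1 or more, against 3.38%. Top2a had 22.0 CPM in HKO against 94.2 CPM in WT, a fold of 0.233 (0.205 to 0.265). Hmmr, Cenpf and Cenpe had the lowest ratios at that level: Hmmr had 4.49 CPM in HKO against 21.7 CPM in WT. Cenpf had 4.73 CPM in HKO against 22.7 CPM in WT, and Cenpe had 7.36 CPM in HKO against 33.2 CPM in WT. Cdc20, which ranked with Smc4 and Top2a among the highest per kb there but stayed under 10 CPM, had 1.24 CPM from 16 UMIs in HKO and 11.4 CPM from 186 UMIs in WT, a fold of 0.109 (0.0608 to 0.181). Cenpp, Kif15 and Smc4 had the highest ratios, with Cenpp at 51.4 CPM in HKO against 102 CPM in WT, Kif15 at 14.9 and 31.04 CPM, and Smc4 at 36.1 and 77.5 CPM.

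In the pericentral zone the libraries were much closer. Of the 14 members that averaged 10 CPM or more, 1 had a log2 ratio of -1 or less, against 4.5% of all genes, and 0 one of 1 or more, against 3.35%. The 1 member was Ttk, with 7.93 CPM in HKO against 16.5 CPM in WT. Top2a and Tpx2 followed, with folds of 0.569 and 0.572. Cenpp had 88.0 CPM in HKO against 82.9 CPM in WT, a fold of 1.06 (0.980 to 1.15), and 16 of the 31 intervals include 1. Kif4 had a fold of 0.936 (0.776 to 1.13). Kif15 had 21.7 CPM in HKO against 25.3 CPM in WT. By level per kb Smc4, Top2a and Cdc20 led there as in the other zones, with Smc4 at 44.2 CPM in HKO against 62.2 CPM in WT and Cdc20 at 2.62 and 6.41 CPM.

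The midlobular zone lay between them. There 11 of 19 members had a log2 ratio of -1 or less, against 5.13% of all genes, and 0 one of 1 or more, against 3.39%. Hmmr had 8.83 CPM in HKO against 21.5 CPM in WT, Cenpe 15.3 and 36.1 CPM, and Aspm 7.92 and 18.8 CPM, which were the lowest ratios. Bub1b, Kif4 and Nusap1 had the highest, with folds of 0.620, 0.618 and 0.605. Top2a had 47.2 CPM in HKO against 103 CPM in WT, Smc4 47.4 and 82.8 CPM, and Cdc20 3.71 and 10.2 CPM.

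The share of nuclei rich in these transcripts also differed most between libraries in the periportal zone. In the pericentral zone it was higher in value in HKO, unlike the summed level. Within WT it was highest in the periportal zone, whereas the summed level was highest in the midlobular zone. At least 10 of 2000 UMIs were found in 1.41% of HKO and 0.809% of WT nuclei of the pericentral zone, where the intervals overlap (0.991 to 1.95 and 0.546 to 1.15). In the midlobular zone the shares were 1.85% in HKO and 2.81% in WT. In the periportal zone they were 0.464% (0.240 to 0.809) in HKO, from 12 nuclei, and 3.37% (2.81 to 3.998) in WT, from 126 nuclei. Thinning left out 312, 379 and 274 HKO nuclei and 84, 87 and 53 WT nuclei from the pericentral to the periportal zone. Replication genes were lower in HKO in every zone as well, with folds of 0.705, 0.534 and 0.518 from the pericentral to the periportal zone.

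Outside hepatocytes the members were lower in HKO in every class as a sum. Endothelial-like nuclei (2306 HKO, 1139 WT) had 406 CPM in HKO against 794 CPM in WT, a fold of 0.511 (0.488 to 0.535), which overlaps that of hepatocyte-like nuclei. Macrophage-like nuclei (1797 and 1073) had 764 CPM in HKO against 1113 CPM in WT, a fold of 0.686 (0.662 to 0.711). Stellate-like nuclei (1184 and 649) had 722 CPM in HKO against 975 CPM in WT, a fold of 0.741 (0.704 to 0.779). In T/NK-like nuclei (346 and 106) the sums were 416 CPM in HKO against 704 CPM in WT, a fold of 0.591 (0.517 to 0.676). The intervals of macrophage-like and stellate-like nuclei lie above that of hepatocyte-like nuclei. With every nucleus weighted equally the stellate-like fold was 0.952.

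**Figure D5:**
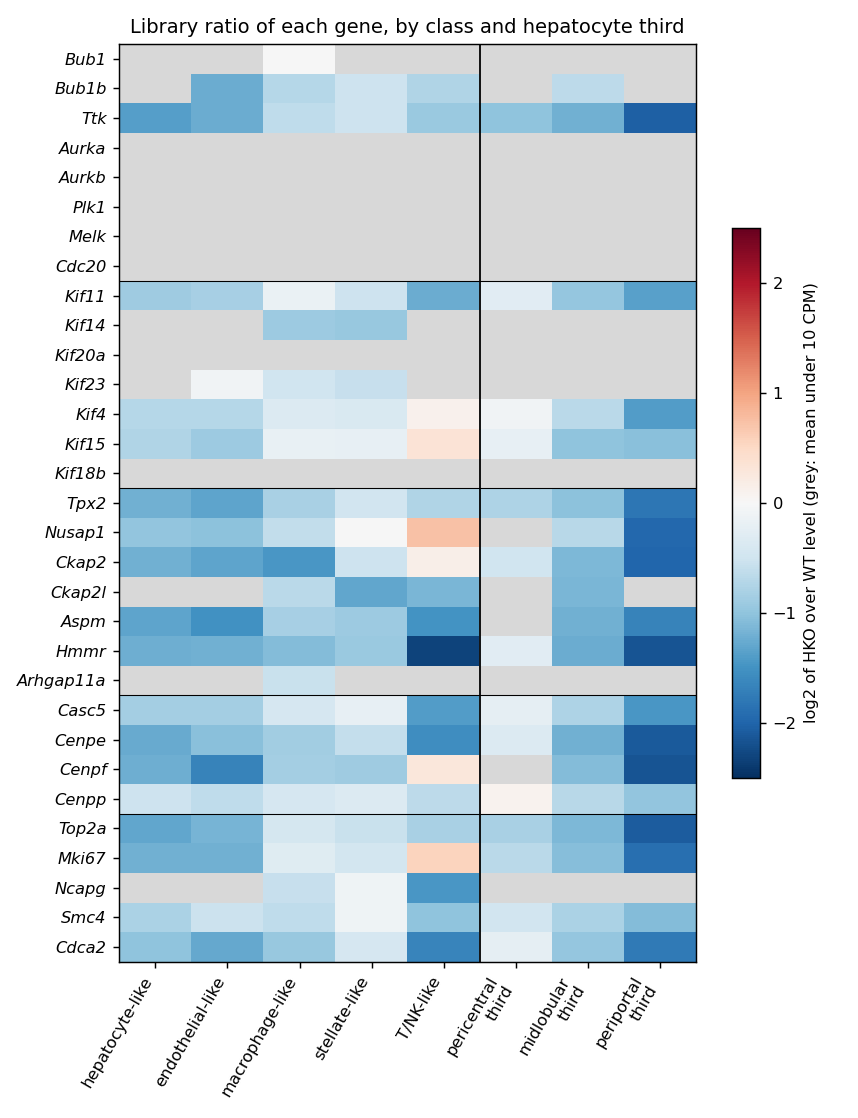
Log2 of HKO over WT level for each of the 31 genes (rows, by role) in 5 classes and 3 zones of the hepatocyte-like nuclei (columns), blue where HKO is lower and red where it is higher; grey where the gene averaged under 10 CPM. Fields that are not grey are all blue in the hepatocyte-like and endothelial-like columns and paler in the stellate-like column. The T/NK-like column is mixed, and the periportal column is the darkest of the zones.

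Within each library the classes also differed from hepatocyte-like nuclei. Relative to hepatocyte-like nuclei, the sum was 2.11 times as high in macrophage-like nuclei in HKO and 1.57 times in WT, and 1.995 times in stellate-like nuclei in HKO (1.92 to 2.07) and 1.37 times in WT. In endothelial-like nuclei it was 1.12 times as high in both libraries. In T/NK-like nuclei it was 1.15 times (1.06 to 1.24) in HKO and 0.991 times (0.886 to 1.11) in WT. For single genes, the interval over hepatocyte-like nuclei was above 1 for 27 members in HKO and 24 in WT in macrophage-like nuclei, and for 28 and 20 in stellate-like nuclei. Endothelial-like nuclei had 6 such members in each library, and 1 member in HKO had an interval below 1. How many of all genes had such intervals over hepatocyte-like nuclei was not counted, so these counts are not set against a base.

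Kif23 was the member furthest above its hepatocyte-like level in macrophage-like nuclei. The summed level of those nuclei was the highest of the 5 classes in WT. In HKO their order with stellate-like nuclei depended on the clustering: macrophage-like nuclei had 731 CPM and stellate-like nuclei 770.3 CPM with cell cycle genes kept, and 727 and 774 CPM with at least 1000 genes per nucleus. Kif23 (MKLP1), a motor of the central spindle and of cytokinesis, had 52.8 CPM in HKO against 74.5 CPM in WT macrophage-like nuclei, which is 9.24 times (7.78 to 10.99) and 7.78 times (6.82 to 8.87) its level in hepatocyte-like nuclei. It was present also in macrophage-like nuclei without UMIs of the other 30 genes, at 21.7 CPM in HKO against 32.5 CPM in WT, against 2.91 and 5.63 CPM in such hepatocyte-like nuclei. Kif23 was also the member with the highest ratio to hepatocyte-like nuclei in stellate-like nuclei, at 3.40 times in HKO and 3.06 times in WT. Mki67 in macrophage-like nuclei had 58.9 CPM in HKO against 72.6 CPM in WT, 4.25 and 2.22 times its hepatocyte-like level.

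Between libraries, 2 of the 24 members that averaged 10 CPM or more in macrophage-like nuclei had a log2 ratio of -1 or less, against 3.81% of all genes, and 0 one of 1 or more, against 2.65%. The 2 were Ckap2, with 9.24 CPM in HKO against 26.1 CPM in WT, and Hmmr, with 10.4 CPM in HKO against 22.7 CPM in WT. Cdca2 followed with 22.6 CPM in HKO against 44.2 CPM in WT. Bub1, Kif11 and Kif15 had the highest ratios, with folds of 0.993 (0.719 to 1.37), 0.889 (0.735 to 1.08) and 0.874 (0.753 to 1.02), all including 1. Top2a had 85.8 CPM in HKO against 117 CPM in WT and Smc4 64.5 and 100.5 CPM, the highest per kb together with Mki67. Aurkb, under 10 CPM, was the 1 member with a value higher in HKO, at 7.92 CPM in HKO against 6.13 CPM in WT, with an interval of 0.838 to 2.01. One HKO macrophage-like cluster of 165 nuclei also led with the endothelial genes Stab2 and Ptprb; without it the summed fold was 0.721. Markers of neutrophils summed to 88.7 CPM in HKO against 35.8 CPM in WT macrophage-like nuclei, and their part in these ratios was not tested.

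In endothelial-like nuclei 12 of 19 members had a log2 ratio of -1 or less, against 4.38% of all genes, and 0 one of 1 or more, against 2.6%. Cenpf had 7.42 CPM in HKO against 24.7 CPM in WT, Aspm 5.11 and 15.5 CPM, and Tpx2 14.1 and 36.2 CPM, the lowest ratios. Kif23 had 10.95 CPM in HKO against 11.7 CPM in WT, a fold of 0.937 (0.671 to 1.32), and Smc4 and Cenpp followed with 0.688 and 0.642. The endothelial-like level per kb was highest for Smc4, at 55.1 CPM in HKO against 80.1 CPM in WT, Top2a, at 41.7 and 93.5 CPM, and Cdc20, at 2.07 and 8.48 CPM. Nuclei with at least 3 of 2000 UMIs made up 7.61% (6.17 to 9.28) in HKO and 18.5% (16.3 to 21.0) in WT, after 1124 HKO and 23 WT nuclei under 2000 UMIs were left out; unthinned, the shares were 10.9% in HKO against 33.6% in WT.

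Stellate-like nuclei had 1 of 22 members at a log2 ratio of -1 or less, against 4.65% of all genes, and 0 one of 1 or more, against 3.0%. That member was Ckap2l, with 7.32 CPM in HKO against 18.8 CPM in WT, and Kif14, with 7.95 and 15.7 CPM, and Hmmr, with 13.4 and 25.8 CPM, came next. Nusap1, Smc4 and Ncapg had folds of 0.999, 0.926 and 0.923, with intervals that include 1. Top2a had 73.8 CPM in HKO against 108 CPM in WT, Smc4 83.0 and 89.7 CPM, and Mki67 38.9 and 53.4 CPM, the highest per kb. The share of nuclei with at least 3 UMIs was 19.4% (16.6 to 22.5) in HKO and 20.8% (17.7 to 24.2) in WT, a difference within these intervals, but the thinning left out 478 of 1184 HKO and 10 of 649 WT nuclei, and unthinned the shares were 24.6% in HKO against 34.7% in WT. Macrophage-like nuclei had 23.4% (20.9 to 26.1) in HKO against 33.8% (30.95 to 36.7) in WT, with 755 HKO and 17 WT nuclei left out and unthinned shares of 33.9% in HKO against 55.0% in WT. At least 10 UMIs were found in 4.82% (3.36 to 6.66) of HKO stellate-like nuclei, from 34 nuclei, and in 4.38% (2.93 to 6.27) of WT ones, from 28. Both shares were the highest in value of the 5 classes. Their intervals overlap those of macrophage-like nuclei, which had 2.59% (1.71 to 3.75) in HKO and 3.88% (2.80 to 5.23) in WT.

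T/NK-like nuclei were few, and single genes there rested on few UMIs. Of 20 members that averaged 10 CPM or more, 9 had a log2 ratio of -1 or less, where 6.63% of all genes did, and 0 one of 1 or more, where 7.84% did. Hmmr had 4.36 CPM from 7 UMIs in HKO and 23.6 CPM from 11 UMIs in WT, Cdca2 10.6 and 34.3 CPM, and Cenpe 10.6 and 32.2 CPM. Nusap1, Mki67 and Kif15 had values higher in HKO, with folds of 1.69 (0.645 to 5.58), 1.48 (0.744 to 3.27) and 1.27 (0.579 to 3.17), whose intervals include 1. Smc4 had 46.8 CPM in HKO against 94.4 CPM in WT, Top2a 46.1 and 81.5 CPM, and Cdc20 was counted 3 times in HKO and 4 times in WT. The share of nuclei with at least 3 UMIs was 9.47% (5.71 to 14.6) in HKO and 15.5% (9.15 to 24.0) in WT, with 156 HKO and 3 WT nuclei left out, so a difference was not detectable at this number of nuclei; unthinned, the shares were 18.8% in HKO against 35.8% in WT.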

How the data were processed

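Nuclear RNA of 1 HKO and 1 WT liver library was counted by the authors as raw UMI counts per gene and barcode, deposited without normalization. Per the file headers the counting program was Cell Ranger 5.0.0, and the submitters' processing notes also name STAR, Seurat 3.2.0 and GRCm38. The labels describe total RNA extraction although the molecule is nuclear RNA. The members, the gene lists and the markers were chosen with earlier results of these data known.

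A barcode was kept when it showed 500 genes or more and its mitochondrial share was under 10%, which removed 10 barcodes in HKO and 186 in WT. Scrublet (scanpy 1.11.5, expected rate 0.1) marked 0 nuclei in both, so doublets were in effect not removed. Both libraries were clustered together (2000 variable genes, 30 components, 15 neighbours, Leiden resolution 0.5, leidenalg 0.10.2). Members, other mitosis and replication genes, mitochondrial genes and 4 haemoglobin genes were left out of the variable genes, the haemoglobin genes after the data had been seen. Clusters were named within each library from fixed markers. A class other than hepatocyte was given when its markers led over the median cluster as a mean, and at least 3 of them singly. A cluster without such a class was called hepatocyte-like when at least 3 hepatocyte markers lay above the median of the clusters of other classes. In both cases no other class could have more markers among the 10 leading genes. Detection of a marker needed 20 CPM.

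The UMIs of all nuclei of a class in a library were added up and expressed per 1000000 UMIs of that class (CPM). Log2 ratios are of HKO over WT with 0.5 CPM added, read for genes averaging at least 10 CPM, and folds carry no addition. Sums have exact Poisson, folds exact conditional and shares exact Clopper-Pearson intervals at 95% (scipy 1.17.1), for counting error only. Where members were counted by their intervals, the share of all genes with such intervals was not calculated. For shares of nuclei, every nucleus was thinned to 2000 UMIs and shallower ones were left out. The names given follow a rule: all 31 members in hepatocyte-like nuclei; elsewhere the 3 highest levels per kb and the 3 highest and 3 lowest ratios at 10 CPM or more; 4 other mitosis genes, of which 1 is not reported here; remaining names were chosen after their values were seen. Of 27998 gene identifiers, 27645 matched GENCODE (GRCm38). The calculation was tested on simulated Poisson counts. In the hepatocyte-like comparison (8326 genes) all 200 genes changed by 4 or 0.25 times passed a log2 ratio of 1 in size, and 95.7% of intervals held the true fold. In the T/NK-like comparison 3.81% of unchanged genes passed that size, and in the periportal zone 93% of intervals held the true fold. The intervals assume the same kind of counts, so the simulation checks the calculation only. Smaller changes were not simulated. Alternatives included TMM scaling (edgeR 4.0.16), other clusterings and filters, and other zone scores.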

Additional observations from a re-analysis of the deposited data

Results flagged for a closer look

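The order of the hepatocyte-like zones was opposite in the 2 libraries. The summed level of the 31 genes in the pericentral over the periportal zone was 1.51 in HKO and 0.659 in WT, and 21 single members had intervals above 1 in HKO and below 1 in WT. The share of all genes with such intervals was not counted. Each group is 1 library, and the difference between the libraries was not tested beyond counting error.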

How the results depend on the processing

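No paired analysis was possible because each group has 1 library and shares 1 replicate number. No alternative turned round a summed HKO over WT fold or, within a library, pericentral over periportal, but the orders of zones and of macrophage-like against stellate-like nuclei within HKO changed as given above. The 31 members' log2 ratios in hepatocyte-like nuclei stayed below 0 in all 248 values over 8 settings (-1.83 to -0.44). With TMM factors the summed folds were 0.464 in hepatocyte-like, 0.465 in endothelial-like, 0.638 in macrophage-like and 0.689 in stellate-like nuclei. With equal weight per nucleus they were 0.547, 0.558, 0.779, 0.952 and, in T/NK-like nuclei, 0.752. With cell cycle genes in the clustering they were 0.481 (endothelial-like) and 0.790 (stellate-like). At resolution 1 they were 0.648 (macrophage-like) and 0.792 (stellate-like), with at least 1000 genes 0.661 and 0.788, and in nuclei of at least 2000 UMIs 0.622 (macrophage-like); without the cluster with endothelial markers, added after seeing the data, 0.721. At 1000 genes the T/NK-like class stayed unnamed and gave no value. Without haemoglobin UMIs or the cluster richest in mitochondrial RNA of each library, both added after seeing the data, the hepatocyte-like fold was 0.510 and 0.507. The 10 members at a log2 ratio of -1 or less became 1 at a floor of 50 CPM, where 3 members remained, and 13 at 1 CPM. Shares of hepatocyte-like nuclei were 3.76% in HKO and 6.66% in WT at 1000 UMIs, 11.9% and 26.6% without thinning, and 11.7% and 26.3% for 2 UMIs.

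With a wider middle zone the pericentral and midlobular folds were 0.814 and 0.497, and pericentral over periportal in HKO was 1.64. Added after seeing the data were that last ratio, scores from 1 marker list and the removal of nuclei with 10 or more member UMIs. With pericentral markers alone the midlobular and periportal folds were 0.464 and 0.391, and pericentral over periportal was 1.13 in HKO and 0.588 in WT. With periportal markers alone the pericentral and periportal folds were 0.699 and 0.356, and the ratios 1.77 in HKO and 0.902 in WT. Without the nuclei of 10 or more member UMIs the folds were 0.713, 0.499 and 0.435, and the ratios 1.38 in HKO and 0.841 in WT. Single genes in T/NK-like nuclei rest on few UMIs, and median depth in HKO was 2044.5 UMIs in endothelial-like and 2206 in T/NK-like nuclei. The cause of these shifts was not tested.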

Other observations

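In the classes too small for the comparisons above, B-like nuclei (177 HKO, 43 WT) had 552 CPM of the 31 genes in HKO and 1855 CPM in WT, and the 4 WT nuclei with 10 or more of 2000 UMIs held 43.9% of the WT UMIs counted. Kif23 in dendritic-like nuclei had 25.1 CPM from 27 UMIs in HKO and 8.82 CPM from 2 UMIs in WT. The 186 WT barcodes removed for mitochondrial RNA held 217 member UMIs, or 205 CPM, and the 10 removed HKO barcodes held 1.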
